A study of Mus musculus with 6 samples.

Results

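The regions described here are stretches of chromatin that were called accessible in both of the WT libraries of matched depth and in neither of the S7KO libraries matched to them. The assay was ATAC-seq. Its enzyme, the transposase Tn5, cuts DNA where chromatin is open and leaves adapters there, and sites with an excess of such fragments are called as peaks. S7KO mice carried a deletion of Sirt7 (Sirt7-/-), and WT mice were wild type. All 6 libraries came from spermatogonia, which are germ cells that still divide by mitosis, taken at postnatal day 5 (Pnd 5) and enriched by plating out the somatic cells. There were 3 libraries per genotype, titled replicates 1, 2 and 4, and they are named here WT 1, S7KO 1 and so on. A second label numbered the same libraries 2, 3 and 4, so the numbers serve as names only. Each library has 1 deposited list of broad peaks, and 2 separate peak lists per genotype entered the selection.

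SIRT7 is a nuclear NAD+-dependent deacetylase of the sirtuin family. Among its targets is acetylated lysine 36 of histone H3 (H3K36ac), a mark that is found at promoters and is linked with relaxed chromatin. In the Pnd 5 testis the germ cell pool holds undifferentiated spermatogonia, which include the stem cells, and the first differentiating ones. Regulatory elements that open in such cells lie at promoters and, more often, within or between genes, where accessible sites act as enhancers or other control sequences. A region called in 1 list and not in another is a difference in calling, since each list has its own limit of detection.

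The members were chosen by measured values, namely the presence or absence of a peak in WT 1, WT 4, S7KO 1 and S7KO 4. Overlapping peaks of these 4 libraries on chromosomes 1 to 19 were merged into 150940 regions. Of these, 1546 (1.02%) had a peak in both WT libraries and in neither S7KO library and are called WT-only regions. The reverse pattern, both S7KO libraries and neither WT library, gave 1825 S7KO-only regions (1.21%). The same 4 libraries were also paired across genotype, so that each pair again joined 1 library of each depth. WT 1 with S7KO 4 held 1624 regions that the other pair lacked (1.08%), and S7KO 1 with WT 4 held 1525 (1.01%). The WT-only count thus lay between the counts of the sides of this crossed split, in which the genotypes are mixed. For comparison, 98151 regions (65%) were called in all 4 libraries. Since presence of a peak chose the members, their calls in these 4 libraries are a description with no test.

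Depth is not stated in the lists, so a genome-wide background coverage was recovered from the fold enrichment and p-value of narrow peaks. It was 4.74 in WT 1 and 4.72 in S7KO 1, and 6.0 in WT 4 and 6.03 in S7KO 4, so that the pairs were matched within each number. WT 2 stood apart as the shallowest library, at 2.92 against 5.15 in S7KO 2, and listed 105754 peaks against 128019. All 12 spermatogonia markers checked had a peak within 1 kb of their 5′ end in every library, and so did 8 of 8 Sertoli and 5 of 5 peritubular myoid markers. Endothelial markers had a peak for 4 of 5 in every library. Leydig markers had a peak for 3 of 6 in WT 2 and 4 of 6 in every other library. Macrophage markers had a peak for 1 of 5 in WT 1 and 2 of 5 in every other library. Most of these markers had a peak in all libraries, so their presence could not show a difference in cell makeup. The part that other testis cells have in any region was not tested. In a mixed sample, fewer cells with an open site and less opening per cell cannot be told apart. Each library had a peak at Sirt7, so the lists gave no check of the deletion.

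A few WT-only regions lay over the start of a gene, and their sequences are printed because the region can be placed on the promoter base by base. Of 31396 RefSeq promoter windows used here (GRCm38.p6, 250 bases before to 50 after the 5′ end), 13 overlapped a WT-only region. The same count was 28 for S7KO-only regions, 40 for WT 1 with S7KO 4, 12 for S7KO 1 with WT 4 and 17779 for regions called in all 4 libraries. The windows shown belong to Crip1, which encodes a small cysteine-rich LIM domain protein, Gabrp, the pi subunit of the GABA-A receptor, Upk3b, a uroplakin of the urothelial and mesothelial surface, Evl, an actin regulator of the Ena/VASP family, and Msmp, a small secreted protein. They are written 5′ to 3′ on the strand of the gene. Capitals mark the bases that lie inside the WT-only region.
Crip1, chr12:113151762-113152061, plus strand: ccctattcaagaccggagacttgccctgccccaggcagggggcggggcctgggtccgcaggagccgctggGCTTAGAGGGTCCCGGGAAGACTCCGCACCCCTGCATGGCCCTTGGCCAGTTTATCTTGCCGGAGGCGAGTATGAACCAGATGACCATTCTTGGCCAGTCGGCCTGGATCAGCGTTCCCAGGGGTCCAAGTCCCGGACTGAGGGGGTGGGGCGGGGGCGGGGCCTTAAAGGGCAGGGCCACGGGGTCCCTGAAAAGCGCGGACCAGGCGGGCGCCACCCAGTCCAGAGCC
Gabrp, chr11:33578908-33579207, minus strand: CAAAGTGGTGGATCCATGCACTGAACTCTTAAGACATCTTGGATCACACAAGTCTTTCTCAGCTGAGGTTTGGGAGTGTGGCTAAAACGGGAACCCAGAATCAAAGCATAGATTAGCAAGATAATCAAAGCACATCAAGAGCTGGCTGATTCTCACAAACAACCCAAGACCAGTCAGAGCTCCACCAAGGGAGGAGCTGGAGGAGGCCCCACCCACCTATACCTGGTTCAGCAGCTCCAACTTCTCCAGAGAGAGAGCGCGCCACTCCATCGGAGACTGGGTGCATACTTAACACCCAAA
Upk3b, chr5:136038246-136038545, plus strand: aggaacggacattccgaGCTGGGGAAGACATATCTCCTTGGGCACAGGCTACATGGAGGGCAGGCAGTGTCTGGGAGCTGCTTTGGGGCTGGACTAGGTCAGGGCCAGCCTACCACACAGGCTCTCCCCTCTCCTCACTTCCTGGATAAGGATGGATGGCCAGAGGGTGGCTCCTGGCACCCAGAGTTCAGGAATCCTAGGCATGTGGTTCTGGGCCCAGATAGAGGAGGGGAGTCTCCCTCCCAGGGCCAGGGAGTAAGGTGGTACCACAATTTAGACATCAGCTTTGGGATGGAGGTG
Evl, chr12:108605516-108605815, plus strand: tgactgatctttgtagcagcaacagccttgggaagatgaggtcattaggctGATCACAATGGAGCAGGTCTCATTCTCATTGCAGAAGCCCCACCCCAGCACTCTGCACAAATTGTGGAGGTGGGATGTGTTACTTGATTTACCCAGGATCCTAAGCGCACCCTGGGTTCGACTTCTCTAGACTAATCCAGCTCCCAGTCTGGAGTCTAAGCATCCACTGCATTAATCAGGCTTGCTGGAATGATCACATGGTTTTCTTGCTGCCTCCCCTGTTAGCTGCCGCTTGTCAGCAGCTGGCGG
Msmp, chr4:43584445-43584744, minus strand: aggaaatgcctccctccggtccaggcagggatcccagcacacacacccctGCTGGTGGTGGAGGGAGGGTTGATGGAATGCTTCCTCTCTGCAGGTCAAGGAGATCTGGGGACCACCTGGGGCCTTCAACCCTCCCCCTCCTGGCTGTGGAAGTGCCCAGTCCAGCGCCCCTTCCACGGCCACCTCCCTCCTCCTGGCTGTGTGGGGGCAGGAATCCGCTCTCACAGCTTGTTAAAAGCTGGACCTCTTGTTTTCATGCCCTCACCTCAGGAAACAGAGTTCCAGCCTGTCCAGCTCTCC

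The Crip1 window was the richest in CpG dinucleotides of the 13, with 18 CpGs and 68.3% G + C. It also held GGGCGG, the core of the GC box that binds Sp1 family factors, searched on both strands. The other windows printed above were poorer, with 4 CpGs at Gabrp, Evl and Msmp and 2 at Upk3b. Over the 13 windows the median was 4 CpGs (0 to 18), against 7 over all windows and 18 over the windows at regions called in all 4 libraries. In the S7KO-only set the median was 4.5, and on the sides of the crossed split it was 5 and 3.5, so few CpGs were common to all 4 sets. GGGCGG stood in 3 of the 13 windows (23.1%) and in 36% of all windows. CCAAT stood in 3 (23.1%) against 37.3%, and TATAAA in 2 (15.4%) against 13.6%. A match of letters is a description of these windows and not a bound site.

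The peaks over these starts were weak. At Crip1 the −log10 q was 4.14 in WT 1 and 2.91 in WT 4, and the region ran from −180 to 198 bases relative to the 5′ end. It was called in neither replicate 2 library. At Gabrp the peaks had −log10 q of 1.47 and 2.90, at Upk3b 1.75 and 1.77 and at Msmp 1.63 and 2.26, again with no call in WT 2 or S7KO 2. The Evl region (1.68 and 2.70) was called in S7KO 2, at 1.53, and not in WT 2. Of the 13 regions 1 was called in WT 2, at Epb41l2, a membrane skeleton protein, and 5 in S7KO 2, at Gpa33, Sult6b2, Epb41l2, Evl and Gm46527. The map of these regions shows 8 that extend across the 5′ end itself.

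**Figure D1:**
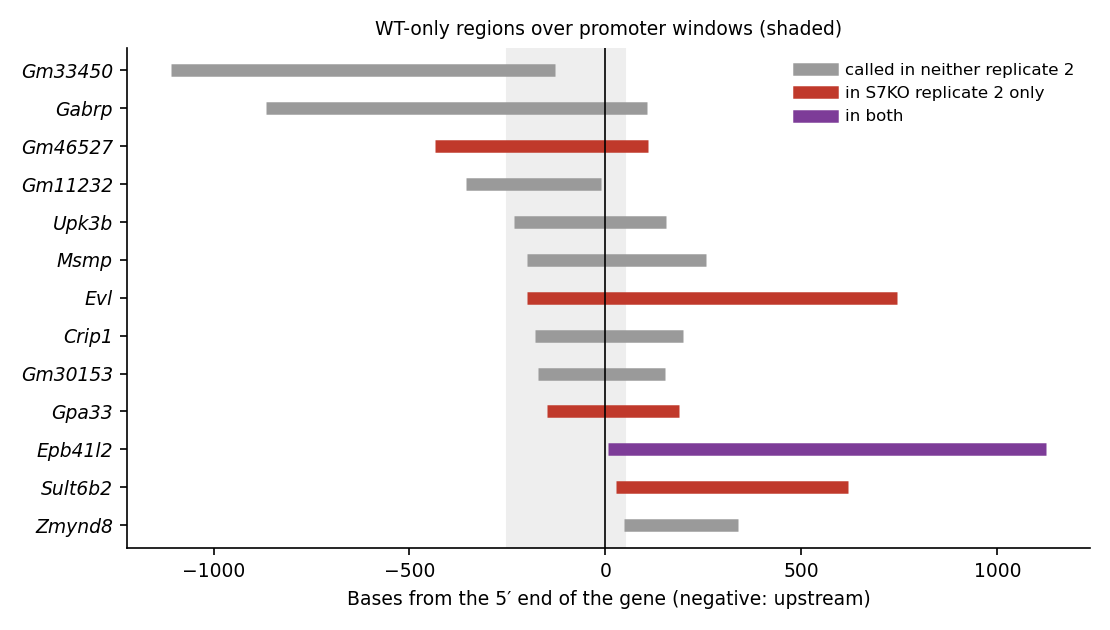
Position of the 13 WT-only regions that overlap a promoter window, in bases from the 5′ end of the gene (negative values lie upstream). Shading marks the window of 250 bases before to 50 after the 5′ end, and colour gives the call in the replicate 2 libraries. Of the 13 regions, 8 were called in neither.

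One WT-only region held a microRNA gene, and its mature sequences are shown because no other RefSeq microRNA hairpin of the table used overlapped a member. The hairpin of Mir6985 (61 bases) lay whole within chr19:4263621-4264117, in the body of Ssh3, a cofilin phosphatase. Capitals mark the seed, bases 2 to 8 (RefSeq, GRCm38.p6).
mmu-miR-6985-5p: uACUGAGGgguggcugcuaugu
mmu-miR-6985-3p: cUCACAGCcaccuccucacag
The region had −log10 q of 2.01 in WT 1 and 1.11 in WT 4, was called in WT 2 at 1.77 and not in S7KO 2, and lay 4214 bp from the nearest peak of S7KO 1 or S7KO 4. Peaks say nothing of whether the microRNA is expressed.

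The replicate 2 libraries took no part in the selection, and the question was whether WT-only regions were found again in WT 2 more than in S7KO 2. On the full lists they were not, but WT 2 was the shallower library, so these shares alone cannot decide it. With an equal number of peaks in each list the shares were 49.1% and 49.5%, as given below. WT 2 had a peak in 330 of the 1546 regions (21.3%, 95% Wilson interval 19.4 to 23.5%) and S7KO 2 in 769 (49.7%, 47.3 to 52.2%). Over all merged regions the shares were 66.6% in WT 2 and 79.9% in S7KO 2. Both libraries called 217 members, WT 2 alone called 113, S7KO 2 alone called 552, and 664 (42.9%) were called in neither. The share called in neither was 17.8% over all merged regions and 42.8% in S7KO-only regions. On the sides of the crossed split it was 49.4% in WT 1 with S7KO 4 and 39.0% in S7KO 1 with WT 4. Members were thus called more often in S7KO 2, which also had the higher background coverage. All intervals given for regions cover counting error only, since neighbouring regions and regions of 1 library are not replicates.

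The sets with mixed genotype showed the same gap. Regions of WT 1 with S7KO 4 were called in WT 2 at 15.8% and in S7KO 2 at 44.4%, and regions of S7KO 1 with WT 4 at 23.1% and 53.8%. The share of members called in WT 2 exceeded that of both sides of the crossed split together (19.4%) by 1.97 percentage points (95% Newcombe interval −0.453 to 4.48). The share called in S7KO 2 exceeded that of the crossed split (48.9%) by 0.805 points (−2.24 to 3.84). Against each side taken singly the members fell in between. They were called in WT 2 more often than the regions of WT 1 with S7KO 4, by 5.52 points (2.81 to 8.23), and in S7KO 2 as well, by 5.34 points (1.87 to 8.80). Against the regions of S7KO 1 with WT 4 the differences were −1.80 points (−4.74 to 1.14) in WT 2 and −4.03 points (−7.55 to −0.495) in S7KO 2. S7KO-only regions were called in WT 2 at 21.3% and in S7KO 2 at 50.5%.

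Regions on which the replicate 2 libraries disagreed were then compared between sets, since the depth of WT 2 and S7KO 2 is the same for every set. Of the 665 members called in exactly 1 of these libraries, WT 2 held 17.0% (14.3 to 20.03%). The share was 15.7% (13.3 to 18.4%) of 778 S7KO-only regions, 15.2% (12.6 to 18.1%) of 666 regions of WT 1 with S7KO 4 and 16.1% (13.6 to 19.04%) of 689 regions of S7KO 1 with WT 4. Members exceeded the crossed split by 1.35 points (−2.00 to 4.90) and S7KO-only regions by 1.31 points (−2.50 to 5.18). The upper bound of 4.90 points over the crossed split holds for the full lists, and it was 8.37 points with an equal number of peaks. With 1 library per genotype outside the selection, no test over libraries was possible.

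**Figure D2:**
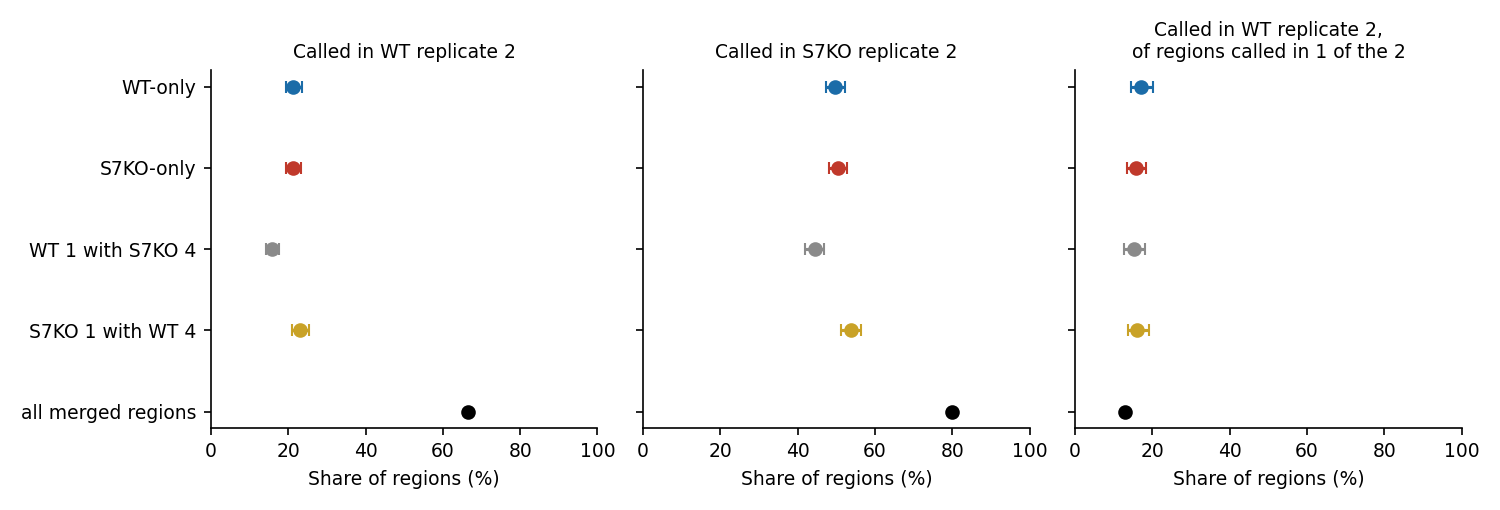
Share of regions (%) with a peak in WT replicate 2 (left), in S7KO replicate 2 (middle) and, of regions called in exactly 1 of these, in WT replicate 2 (right), with 95% Wilson intervals. WT-only regions sit at 21.3%, 49.7% and 17.0%. Of the other selected sets the farthest, WT 1 with S7KO 4, sits 5.52 points lower in the left panel and 5.34 points lower in the middle one. All merged regions, also shown, sit at 66.6%, 79.9% and 12.9%.

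When the same number of best-ranked peaks was kept in each of the 6 lists (105754), the replicate 2 gap closed in WT-only regions. Of 1280 WT-only regions under this setting, 49.1% were called in WT 2 and 49.5% in S7KO 2, and WT 2 held 49.4% (45.2 to 53.7%) of the disagreements. The last share was 42.6% (38.5 to 46.8%) in S7KO-only regions, 49.0% (44.6 to 53.4%) in WT 1 with S7KO 4 and 43.6% (39.3 to 48.0%) in S7KO 1 with WT 4. The WT-only share of disagreements exceeded the S7KO-only share by 6.87 points (Newcombe interval 0.907 to 12.8). It exceeded that of WT 1 with S7KO 4 by 0.442 points (−5.64 to 6.52), that of S7KO 1 with WT 4 by 5.85 points (−0.258 to 11.9) and both together by 3.13 points (−2.12 to 8.37). The share of these 1280 regions called in WT 2 was 4.88 points above that of the crossed split (1.52 to 8.23), and the share called in S7KO 2 was 2.44 points above it (−0.921 to 5.80). The sides of the crossed split differed in this, since the share called in WT 2 was 10.4 points above that of WT 1 with S7KO 4 (6.53 to 14.1) and −1.02 points from that of S7KO 1 with WT 4 (−4.94 to 2.91). The share called in S7KO 2 was 10.1 points above that of the former (6.22 to 13.8) and −5.77 points from that of the latter (−9.67 to −1.84). A gap remained in S7KO-only regions, called at 44.0% in WT 2 and 50.2% in S7KO 2. The shares were 50.1% and 55.3% in S7KO 1 with WT 4, and 38.7% and 39.5% in WT 1 with S7KO 4. WT-only regions differed from S7KO-only regions by 5.09 points in WT 2 (1.22 to 8.93) and −0.703 points in S7KO 2 (−4.57 to 3.17).

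WT-only regions were narrow and weak. Their median width was 377 bp (95% interval of the median 370 to 385 bp, range 201 to 2508), against 393 bp for S7KO-only regions, 383.5 and 376 bp on the sides of the crossed split, 701 bp for all merged regions and 966 bp for those called in all 4 libraries. Only 63 members (4.08%) were wider than 1 kb, against 32.6% of all merged regions. Width spans all merged peaks of a region, and regions called in all 4 libraries join more peaks, so their widths are not like for like. In 1545 of the 1546 the region consisted of 1 peak from each WT library. Their peaks stood at a median of 89.2% of the WT 1 list and 86.3% of the WT 4 list by −log10 q, where 100% is the weakest peak. The median −log10 q was 2.32 in WT 1 (range 1.10 to 13.4) and 2.77 in WT 4 (1.04 to 18.2), and the median fold enrichment over local background was 2.58 and 2.54. Narrow width was shared by all 4 sets, and the S7KO-only regions stood as low in their lists, at medians of 88.9% in S7KO 1 and 88.6% in S7KO 4.

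The selection turned on weak peaks at its edge. At the inner edge, the weaker WT peak had a −log10 q of 1.04 at Prkg1, 1.09 at Slc45a1 and 1.10 at Gm33173. Just outside were 6735 regions called in both WT libraries and in exactly 1 S7KO library, of which 981 had an S7KO peak with −log10 q below 2. The weakest of these S7KO peaks had values of 1.05 at Smco4, 1.11 at Ywhae and 1.14 at Ak5. Of the members, 732 (47.3%) had a WT peak below 2, 814 (52.7%) had both at 2 or more and 301 (19.5%) had both at 3 or more.

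**Figure D3:**
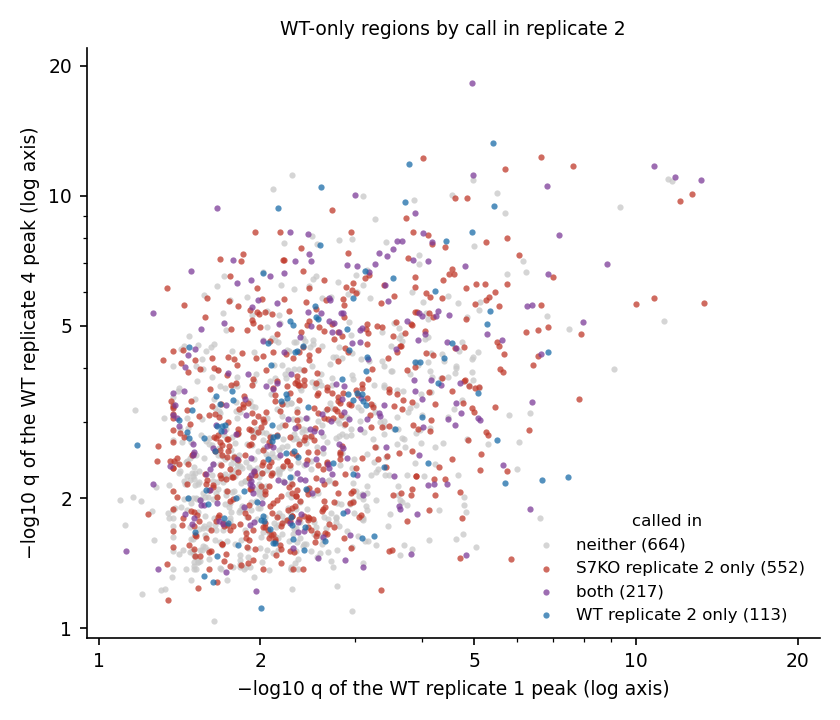
−log10 q of the WT replicate 4 peak against that of the WT replicate 1 peak for each of the 1546 WT-only regions (both axes logarithmic), coloured by call in the replicate 2 libraries. Most points lie below 5 on both axes, and the 113 regions called in WT replicate 2 alone are spread among the others.

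Stronger members were found again more often, in both replicate 2 libraries. Members were divided into 4 rank groups of equal size by the rank of their weaker WT peak. From the best to the weakest group, WT 2 called 28.9%, 23.3%, 16.3% and 16.8%, and S7KO 2 called 59.4%, 48.2%, 50.3% and 41.1%. The best group of the S7KO-only regions was called at 27.6% and 59.7%. On the sides of the crossed split it was called at 20.4% and 53.2% in WT 1 with S7KO 4, and at 27.7% and 56.3% in S7KO 1 with WT 4. Width acted alike, since the narrowest of 4 width groups (201 to 302 bp) was called at 13.4% in WT 2 and 39.8% in S7KO 2, and the widest (502 to 2508 bp) at 26.6% and 56.6%. S7KO 2 thus called more members than WT 2 in every rank and width group, and the same held in the other selected sets.

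**Figure D4:**
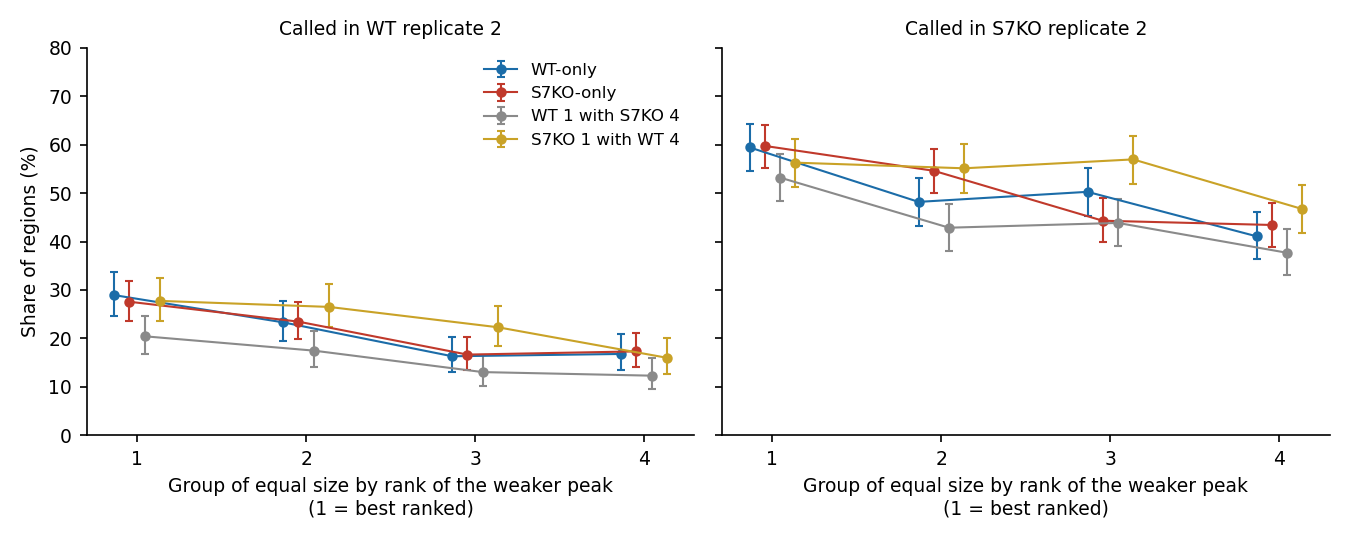
Share of regions (%) called in WT replicate 2 (left) and S7KO replicate 2 (right), in 4 groups of equal size of each set by rank of the weaker peak (1 is the best), with 95% Wilson intervals. In WT-only regions the share falls from 28.9% to 16.8% in WT replicate 2 and from 59.4% to 41.1% in S7KO replicate 2.

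WT-only regions did not sit beside S7KO peaks more often than the mixed sets sat beside peaks of the libraries they lacked. The nearest peak of S7KO 1 or S7KO 4 lay at a median of 4870.5 bp, with a range of 9 to 190267 bp. It lay within 200 bp for 7 members and within 1 kb for 80 (5.17%, 95% Wilson interval 4.18 to 6.39%). A member that touched such a peak could not be chosen, so these distances are a description. When peaks had to cover 50% of a region to count as a call, 45.2% of the regions so chosen lay within 1 kb of an S7KO peak. The share within 1 kb was 7.18% for S7KO-only regions (6.08 to 8.45%), 6.53% for WT 1 with S7KO 4 and 6.23% for S7KO 1 with WT 4, each measured to its own lacking libraries. Another 400 members (25.9%) were more than 10 kb from any such peak, against 27.6% and 23.9% on the sides of the crossed split.

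Most WT-only regions lay within genes and few at promoters. Gene bodies outside promoters held 877 (56.7%, 95% Wilson interval 54.2 to 59.2%), distal intergenic sequence 587 (38.0%, 35.6 to 40.4%) and promoters, taken as 3 kb to either side of a 5′ end, 82 (5.30%, 4.29 to 6.54%). All merged regions had 17.2% in promoters, and those called in all 4 libraries had 22.7%. Regions called in any 2 of the 4 libraries, the members included, had 7.33% in promoters, 54.5% in gene bodies and 38.2% in distal sequence. A low promoter share thus went with being called in few libraries. The median distance to a 5′ end was 26958 bp in WT-only regions, between 24470 and 24918 bp in the other 3 sets and 18505 bp over all merged regions. Exons, introns and untranslated regions were not separated.

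Against the sets of the same size the members had the smallest promoter share. It was 3.69 points lower than in WT 1 with S7KO 4 (8.99%, Newcombe interval of the difference −5.49 to −1.90) and 2.81 points lower than in S7KO-only regions (8.11%, −4.49 to −1.11). The difference from S7KO 1 with WT 4 (6.62%) was −1.32 points (−3.01 to 0.361). Gene bodies held 9.87 points more members than regions of WT 1 with S7KO 4 (46.9%, interval 6.39 to 13.3) and 6.54 points more than S7KO-only regions (50.2%, 3.16 to 9.89). They held 0.202 points more than in S7KO 1 with WT 4 (56.5%, −3.30 to 3.70). Both sets that include WT 4 were thus alike in gene body share, whichever genotype WT 4 was paired with, and both sets that include S7KO 4 had lower values. The genotype of replicate 4 and the library itself cannot be told apart here.

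**Figure D5:**
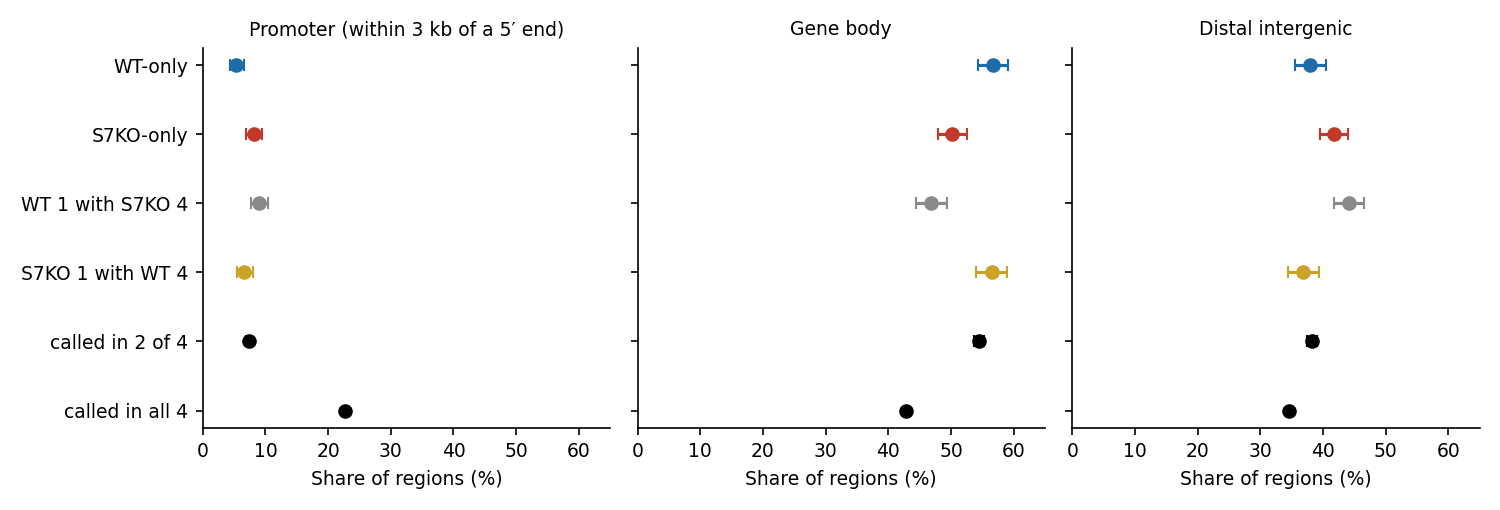
Share of regions (%) in promoters, gene bodies outside promoters and distal intergenic sequence, with 95% Wilson intervals. The 4 selected sets have promoter shares of 5.30 to 8.99%, against 22.7% for regions called in all 4 libraries, and the gene body shares of WT-only regions and of S7KO 1 with WT 4 are 56.7% and 56.5%.

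By feature class, promoter members were called in WT 2 at 23.2% (19 of 82) and in S7KO 2 at 52.4% (43 of 82). Gene body members were called at 23.3% and 48.5%, and distal members at 18.2% and 51.3%. The intervals of the promoter class were wide, from 15.4 to 33.4% in WT 2, and overlapped those of the other classes. In every class S7KO 2 called more members than WT 2.

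The members were assigned to 1432 different genes, 1034 of them protein-coding, by promoter, gene body or nearest gene. Long noncoding RNA genes took 27.4% of members, against 28.1% of all merged regions. Of the genes with a member at their promoter or in their body, 846 had 1, 49 had 2 and 5 had 3. These were Abtb2, Agbl4, which encodes a carboxypeptidase that removes glutamates from tubulin, Nav2, a neuron navigator protein, Prkg1, the cGMP-dependent protein kinase, and Vps35l, a subunit of an endosomal recycling complex. Their lengths ran from 101314 bp for Vps35l to 1266676 bp for Agbl4. Genes with 3 regions numbered 10 for S7KO-only regions, 11 for WT 1 with S7KO 4 and 5 for S7KO 1 with WT 4. S7KO-only regions and S7KO 1 with WT 4 each also had 1 gene with 4 or more. Counted once per region, host genes of gene body members had a median length of 115 kb, close to 105 kb over all merged gene body regions. Of the 15 members in the 5 genes named above, 4 were called in WT 2 and 10 in S7KO 2, where the shares over all members were 21.3% and 49.7%. The best ranked in its worse WT library stood in Nav2, at chr7:49338099-49338455, with −log10 q of 4.06 in WT 1, 4.8 in WT 4, 3.20 in WT 2 and 5.68 in S7KO 2. Another Nav2 member, chr7:49386287-49387166, had 1.38 and 1.54, lay 33 bp from an S7KO peak and was called in S7KO 2 at 2.03. The 3 Agbl4 members had WT values of 1.47 to 4.34, and none was called in WT 2.

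Neighbouring members were far apart, with a median gap of 921 kb, and 13 of 1527 gaps were under 10 kb. There were 10 clusters of 3 or more members with gaps of at most 100 kb. The largest had 4 members over chr11:65250265-65354586 at Myocd, a coactivator of smooth muscle genes, and Gm30586, of which 2 were called in WT 2 and 3 in S7KO 2. In Vps35l the 3 members stood within chr7:118766267-118815364, and in Abtb2 within chr2:103606798-103717211. No domain of many members was found.

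The 10 members that ranked best in their worse WT library stood out from the rest by rank, from 40.2% to 53.9% of the list. The first was chr4:151588509-151588850, of 342 bp, in the body of Camta1, a calmodulin-binding transcription activator. Its −log10 q was 10.8 in WT 1, 11.7 in WT 4, 6.70 in WT 2 and 8.83 in S7KO 2. It was thus a mid-list peak in 4 of the 6 libraries, S7KO 2 among them, and was not called in S7KO 1 or S7KO 4. The second lay in the body of Pawr, which encodes a regulator of apoptosis, at chr10:108393348-108393913, with 11.8, 11.0, 7.88 and 10.003 in the same order. In the body of Plcl2, a phospholipase C-like protein without catalytic activity, the region chr17:50568068-50568443 had 13.2, 10.9, 5.64 and 9.02. A distal region 6075 bp from 2310015D24Rik was likewise called in both replicate 2 libraries.

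Of the 10, 3 had no call in either replicate 2 library. They lay in the body of Ccdc171 (chr4:83551601-83551900, −log10 q of 11.5 in WT 1 and 10.9 in WT 4), of Sppl2a, an intramembrane protease (chr2:126891819-126892043, 11.7 and 10.8), and of Catsper2 (chr2:121408277-121408493, 9.34 and 9.42). Catsper2 encodes a subunit of the sperm-specific calcium channel. These members were called only in WT 1 and WT 4 among the 6 libraries, at ranks of 37.6 to 47.2% of the lists. The last 3, near or in the noncoding genes 1110020A21Rik, 2900079G21Rik and Gm46948, were called in S7KO 2 and not in WT 2. In all, WT 2 called 4 of these 10 members and S7KO 2 called 7, and none was called in WT 2 alone.

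Of the 113 members that were called in all 3 WT libraries and in no S7KO library, the best ranked was chr15:78340103-78340441 in the body of Csf2rb, the shared beta subunit of the receptors for GM-CSF and related cytokines of myeloid cells. Its −log10 q was 5.44 in WT 1, 9.47 in WT 4 and 4.78 in WT 2. The nearest peak of S7KO 1 or S7KO 4 lay 18810 bp away. The next was a promoter region at Rbfaos, a noncoding gene on chromosome 18, with 5.42, 13.2 and 4.37. It was followed by chr7:16865941-16866216 in the body of Prkd2, protein kinase D2, with 5.35, 5.40 and 2.68. The distal regions chr16:45192501-45193036, near Atg3, which encodes an enzyme of autophagy, and chr15:84348734-84349178, near Parvg, a focal adhesion protein, had WT 2 values of 1.59 and 1.83. These 5 ranked no better than 63.5% of the worse list, below each of the 10 best members. The pattern of 3 WT and no S7KO library was used to choose them and is no test. Of the replicate 2 libraries, WT 2 alone also called 122 of the 1825 S7KO-only regions. On the sides of the crossed split WT 2 alone called 101 of 1624 regions of WT 1 with S7KO 4 and 111 of 1525 of S7KO 1 with WT 4.

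The widest members were weak throughout. A distal region of 2508 bp near Pum2, an RNA-binding translational repressor, had −log10 q of 2.22 in WT 1 and 2.18 in WT 4, and was called in WT 2 at 3.41 and S7KO 2 at 1.72, with an S7KO peak 574 bp away. Regions in the bodies of Rnf216, an E3 ubiquitin ligase (1772 bp), Epb41l2 (1657 bp) and Sash1, a scaffold protein (1621 bp), were also called in both replicate 2 libraries. The region in Cog3, a Golgi tethering factor (2231 bp, 2.16 and 1.51), was called in neither. Of the 5 widest members, 4 were thus called in WT 2 and 4 in S7KO 2. The shares over all members were 21.3% and 49.7%.

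At promoters of protein-coding genes there were 48 members. The best ranked was chr2:30064612-30064872, 1602 bp from the 5′ end of Set, which encodes a histone chaperone and inhibitor of a protein phosphatase. Its −log10 q was 10.03 in WT 1, 5.62 in WT 4 and 6.34 in S7KO 2, with no call in WT 2. The members at Rinl (5.13 and 5.68) and Oit3 (3.58 and 5.12) were not called in WT 2 either, and that at Oit3 was called in S7KO 2 at 3.17. At Hapln1, a link protein of the extracellular matrix, the member had 3.88 and 4.12 and was called in WT 2 at 1.42 and not in S7KO 2. At Tmem151b it had 3.27 and 6.97 and was called in both. None of these 5 lay within 1 kb of the 5′ end.

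Genes of undifferentiated and stem spermatogonia held a share of members near their share of all merged regions. The list of undifferentiated and stem spermatogonia genes (29 of 30 matched) had 2, which is 0.129% of members against 0.138% of all merged regions. One lay in the body of Etv5, an ETS factor that acts in stem cell self-renewal, at chr16:22409800-22410375. Its −log10 q was 6.83 in WT 1, 10.5 in WT 4, 4.24 in WT 2 and 8.32 in S7KO 2. The other was distal, 28979 bp from Zbtb16, which encodes the spermatogonia marker PLZF, with 4.77 and 3.32 and a call in S7KO 2 at 2.31. Both were thus called in S7KO 2.

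The list of spermatogonial differentiation genes (22) had 3 members, 0.194% against 0.146%. They lay in the body of Kit, the stem cell factor receptor (chr5:75629634-75629930, 3.17 and 6.74), in the body of Esr1, the estrogen receptor (2.33 and 2.76), and 14506 bp from Aldh1a1, a retinaldehyde dehydrogenase (3.07 and 3.02). None of the 3 was called in a replicate 2 library. Esr1 and Aldh1a1 count here by their place on this list, and which testis cells express them was not tested. Germ cell genes had 1 member (0.0647% against 0.0722% of all merged regions), in Tdrd9, a helicase of the piRNA pathway (2.79 and 4.16, and 6.55 in S7KO 2). Meiosis genes had 1 (0.0647% against 0.051%), in Sycp1, the transverse filament of the synaptonemal complex (chr3:102915281-102915534, 11.3 and 5.15), which neither replicate 2 library called.

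Genes that act on H3K36 and the sirtuins (29 of 31 matched) had 3 members, 0.194% of members against 0.123% of all merged regions. They lay in Kdm4a and Kdm2a, demethylases of methylated H3K36 among other sites, and in Nsd2, an H3K36 methyltransferase. The Kdm4a region, chr4:118174477-118174820, had −log10 q of 6.17 in WT 1 and 7.08 in WT 4 and no call in replicate 2. The Kdm2a region had 3.75 and 5.12 and was called in WT 2 at 1.74 and S7KO 2 at 4.13, and the Nsd2 region had 2.29 and 2.23 and no call in replicate 2. This list had 2 S7KO-only regions, 2 in WT 1 with S7KO 4 and 0 in S7KO 1 with WT 4.

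Double-strand break repair genes (35 of 36 matched) had 4 members, 0.259% against 0.136% of all merged regions. They were in the bodies of Trp53bp1, which encodes the break-site mediator 53BP1, Blm, the RecQ helicase, and Xrcc6, the Ku70 subunit, and 19685 bp from Rad52, a recombination mediator. Their −log10 q lay between 1.81 and 3.73 over both WT libraries. The Xrcc6 region was called in WT 2 at 1.62 and S7KO 2 at 1.33 and lay 326 bp from an S7KO peak, and the other 3 had no call in replicate 2. The same list had 3 S7KO-only regions and 1 and 2 on the sides of the crossed split, so these counts differ by a few regions.

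GDNF, FGF and WNT signalling genes (35) had 1 member, 0.0647% against 0.232% of all merged regions, in the body of Tcf7l2, a transcription factor of the WNT pathway. It had 1.66 in WT 1 and 3.44 in WT 4 and was called in WT 2 at 1.55 and not in S7KO 2. Of the other testis cell lists, Sertoli cell genes (21) and Leydig and stromal cell genes (24) had 0 members. Those lists held 174 (0.115%) and 123 (0.0815%) of all merged regions, and the sides of the crossed split had 1 and 2 Sertoli and 3 and 1 Leydig and stromal regions. Endothelial and immune cell genes (22) had 3, 0.194% of members against 0.1% of all merged regions, at Csf2rb, at Itgam, an integrin of myeloid cells (2.60 and 5.80), and 7379 bp from Flt1, a VEGF receptor (3.72 and 4.81, and 4.11 in S7KO 2). The S7KO-only regions also had 3 on that list. Over all lists, 18 members (1.16%) were assigned to a listed gene, against 1.15% of all merged regions. Of these 18, 5 were called in WT 2, 6 in S7KO 2 and 10 in neither, where the shares over all members were 21.3%, 49.7% and 42.9%.

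For most gene families the WT-only share could not be told from that of all merged regions. Of 18 families defined by symbol, the share of all merged regions lay inside the 95% Wilson interval of the WT-only share in 17. Families with few members had wide intervals, such as 0.0114 to 0.365% for histone genes, so equal shares were not shown. Predicted genes with Gm or Rik symbols took 431 members (27.9%, against 28.4% of all merged regions), ion channels 25 (1.62% against 1.28%) and zinc finger genes 24 (1.55% against 1.28%). The exception was the cadherins and protocadherins, which are adhesion proteins, with 16 members (1.03%, 0.638 to 1.67%) against 0.549% of all merged regions. They took 0.493% of S7KO-only regions and 0.80% and 0.656% on the sides of the crossed split. The members lay at genes such as Cdh2, Cdh13, Fat3 and Pcdh15. This family was singled out among 18 families after the values were seen.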

How the data were processed

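ATAC-seq was analysed in 6 libraries of Pnd 5 spermatogonia, from the deposited broad peak lists, 1 per library. Per the labels and the methods of the study, the authors aligned trimmed reads to mm10 with Bowtie2, kept unique, non-duplicate reads and called peaks with MACS2 2.2.5. The deposited lists give for each peak a display score and a ratio (fold enrichment over local background), as the authors' peak caller wrote them. The deposited p-value and q-value are on a −log10 scale. The largest q-value was 0.0983. The sources do not settle whether calls rest on nucleosome-free fragments or on all of them. Reads and the authors' differential test were not used here.

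Peaks sharing at least 1 bp were merged, and a library had a region when any of its peaks overlapped it. Rank within a list was taken by −log10 q, from best to 100%. Background coverage was solved from fold and p-value of peaks narrower than 300 bp (1st percentile). Coordinates are mm10 (GRCm38), since a chromosome 1 coordinate of 195242313 occurs. Genes came from RefSeq GRCm38.p6 (34614 protein-coding and lncRNA genes, 94.8% with a 5′ end). For 27025 genes the 5′ end came from the promoter windows and for 5794 from the strand of the same symbol in GENCODE. No promoter window of chromosome 18 was used. Features were promoter (within 3 kb of a 5′ end), then gene body, then distal. Shares carry 95% Wilson intervals and differences Newcombe intervals (statsmodels 0.14.6), with pandas 2.3.3 and numpy 2.4.6. No test was made, because only 1 library per genotype lay outside the selection. Merging, distances and the solving of background coverage were tested on simulated data. The coverage check used exact values at a single fixed background, and the 1st percentile step was not simulated. The study describes 3 biological replicates, and nothing pairs S7KO with WT libraries beyond their numbers.

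Regions were named by rule: the 10 best by the worse WT rank, the 5 best called in WT 2 and not S7KO 2, the 5 widest, the 5 genes with most members, members at listed genes (up to 4 a list) and the 5 best promoter members of protein-coding genes. Promoter windows and the microRNA were added because a region overlapped them. The members and lists were chosen with earlier results of these data known, and 4 family patterns were narrowed after their matches were seen. Alternatives were a −log10 q of at least 2, an equal number of peaks (118912 in the 4 lists, or 105754 in all 6 where replicate 2 is used), merging across 200 bp, coverage of 50% of the region, X and Y added, other distances and leaving out each library. Differences between sets under each setting were added after seeing the data.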

Additional observations from a re-analysis of the deposited data

How the results depend on the processing

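No paired analysis was possible because the results come from no test and only 1 library per genotype lies outside the selection. Of 75 alternatives, 40 kept the value within its interval or the count within 1.5 times, and 35 did not. The alternatives for the disagreement share and the gene body share were chosen after seeing the data. Across the fits that each left out 1 of the 4 libraries, where a region needs fewer agreeing calls by construction, there were 3526 regions without S7KO replicate 1, the lowest count, and 10040 without WT replicate 1, the highest. The share called in S7KO 2 ranged from 27.7 to 68.3% and in WT 2 from 10.3 to 35.1%, and WT 2 held from 14.3 to 18.2% of the disagreements. Promoters held 5.59 to 7.29% and gene bodies 52.8 to 58.1%, with median width of 269 to 415 bp, and 4.04 to 7.95% lay within 1 kb of an S7KO peak. Both replicate 2 shares were lowest without WT replicate 1 and highest without S7KO replicate 4. With −log10 q of at least 2 the share called was 42.2% in S7KO 2 and 17.3% in WT 2, median width 404 bp and the share within 1 kb 3.51%. With 105754 peaks in each of the 6 lists WT 2 called 49.1% and held 49.4% of the disagreements. With 118912 peaks in each of the 4 lists of the selection there were 1445 regions, of median width 399 bp. Asking peaks to cover 50% of a region gave a width of 470 bp and 45.2% within 1 kb, since a short S7KO overlap then no longer counts as a call. A promoter of 1 kb held 2.2%, and 0.453% lay within 200 bp of an S7KO peak. In each alternative that kept the 4 libraries and did not equalise peak number, S7KO 2 called more members than WT 2. WT 2 had the lowest background coverage and the fewest peaks, and the part of depth in its calls was not tested beyond equal peak numbers.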

Other observations

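The feature makeup of each set went with its replicate 4 library. Gene bodies held 56.7% of WT-only regions and 56.5% of the regions of S7KO 1 with WT 4, against 50.2% of S7KO-only regions and 46.9% of those of WT 1 with S7KO 4. Long noncoding RNA genes showed the opposite order, with 27.4% and 28.3% in the sets that include WT 4 and 31.9% and 34.1% in those that include S7KO 4. Promoter windows followed, with 13 and 12 windows overlapped in the sets with WT 4 and 28 and 40 in the sets with S7KO 4. For these 3 measures the sets that include WT 4 lay closer to each other than to either set that includes S7KO 4. This pattern was seen after the values were computed, and the library and its genotype cannot be told apart.

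Chromosomes 14 and 19 held more WT-only regions than their share of all merged regions, out of 19 chromosomes compared. Chromosome 19 held 60 (3.88%, 95% Wilson interval 3.03 to 4.96%) against 2.84% of all merged regions, and 2.63% of S7KO-only regions, 2.16% of WT 1 with S7KO 4 and 2.10% of S7KO 1 with WT 4. Chromosome 14 held 83 (5.37%, 4.35 to 6.61%) against 4.15%, with 4.92% in S7KO 1 with WT 4. Counted per 1000 merged regions, chromosomes ranged from 8.23 on chromosome 13 to 14.0 on chromosome 19. Both were singled out after all chromosomes were seen.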
